A study of Arabidopsis thaliana with 12 samples.

Results

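The effect of the bzip17 mutation common to both temperatures was measured in RNA from unopened Arabidopsis thaliana flower buds. All 12 libraries of the series entered, 6 of bzip17 and 6 of wild type (WT) plants, and the genotype term was tested in a model that also holds temperature. The 4 groups of 3 libraries were bzip17 kept at 22 °C, WT kept at 22 °C, bzip17 held at 38 °C for 6 h and WT held at 38 °C for 6 h. The bzip17 plants carry a T-DNA insertion of the SALK collection, a single allele, so that an effect of the mutation cannot be told apart from other differences carried by that line. Both genotypes were Col-0 plants grown in long days, and each replicate pooled buds of stages 1 to 12 from 8 plants. A bulk bud holds sepals, anthers, pollen and carpels, and in such samples fewer cells of a type cannot be told apart from less RNA per cell.

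bZIP17 is a transcription factor held in the membrane of the endoplasmic reticulum (ER), where secreted and membrane proteins fold. In the unfolded protein response (UPR), bZIP17 and its close relative bZIP28 travel to the Golgi, are cut by proteases and enter the nucleus, while bZIP60 is activated by IRE1 through splicing of its mRNA. The response raises chaperones, protein disulfide isomerases, calnexins, calreticulins and the machinery that glycosylates, moves or degrades ER proteins. Their promoters are known for the element ERSE-I, a CCAAT box 10 bases before CACG, and for related elements with an ACGT core.

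Counts per library totalled 38.6 to 71.8 M (M, 1e6 counts). The share on 15 ribosomal RNA (rRNA) loci ran from 1.43 to 64.8%, and it was over 10% in 1 bzip17 library and 3 WT libraries (replicate 1 of bzip17 at 22 °C, replicates 2 and 3 of WT at 22 °C and replicate 1 of WT at 38 °C). Results are therefore also given for the other 8 libraries, 5 of bzip17 and 3 of WT, with 1 WT library left at 22 °C whose spread is taken to be that of the others. Levels below are counts per M after TMM scaling (CPM), which do not correct for gene length. Of 33610 genes counted, 20715 reached 1 FPKM in 3 or more libraries and were tested. Floral organ identity genes were read in every library, with summed levels of 438.4 to 1098 CPM in bzip17 and 543.6 to 963.9 CPM in WT. The 8 seed storage genes, which buds should lack, summed to 0.0829 to 1.81 CPM in bzip17 and 0.189 to 1.32 CPM in WT.

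The mutated gene itself was low in every bzip17 library. BZIP17 (AT2G40950, chromosome 2, 17087620 to 17090424, TAIR10) had 4.04, 5.74 and 3.50 CPM in bzip17 at 22 °C, against 36.8, 31.7 and 45.1 CPM in WT. At 38 °C it had 10.3, 8.22 and 9.39 CPM in bzip17, against 45.2, 51.1 and 49.3 CPM in WT. All 6 bzip17 libraries lay below all 6 WT libraries, and the averaged log2 change was -2.73 (SE 0.18, edgeR quasi-likelihood adjusted p = 1.05e-05), a 6.65-fold lower level. The counts cover the whole gene, so reads on either side of an insertion would be included.

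Few genes passed the test. At an adjusted p under 0.05, 3 genes were higher and 5 lower in bzip17, which is 0.0145% and 0.0241% of the genes tested and 0.0386% together. With a fold over 2 added there were 3 higher (0.0145%) and 2 lower (0.00965%), 0.0241% together. At an unadjusted p under 0.05 there were 1898 genes (9.16%), 880 higher (4.25%) and 1018 lower (4.91%). DESeq2 called 23 higher and 73 lower (0.111% and 0.353%), and 7 of the 8 edgeR genes were among them. A second description used only the order of the libraries. In 80 genes (0.386%) the 3 bzip17 libraries lay above the 3 WT libraries at both temperatures, and in 135 genes (0.652%) they lay below, 1.04% together. With 3 libraries per group some genes lie apart in this way by order alone, and how many was not tested. All 6 bzip17 libraries lay above all 6 WT libraries in 15 genes (0.0724%) and below them in 19 (0.0917%). The median absolute log2 change of these 215 genes was 0.50, so most of the differences were under 2-fold. The median log2 change of all genes tested was 0.00.

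**Figure D1:**
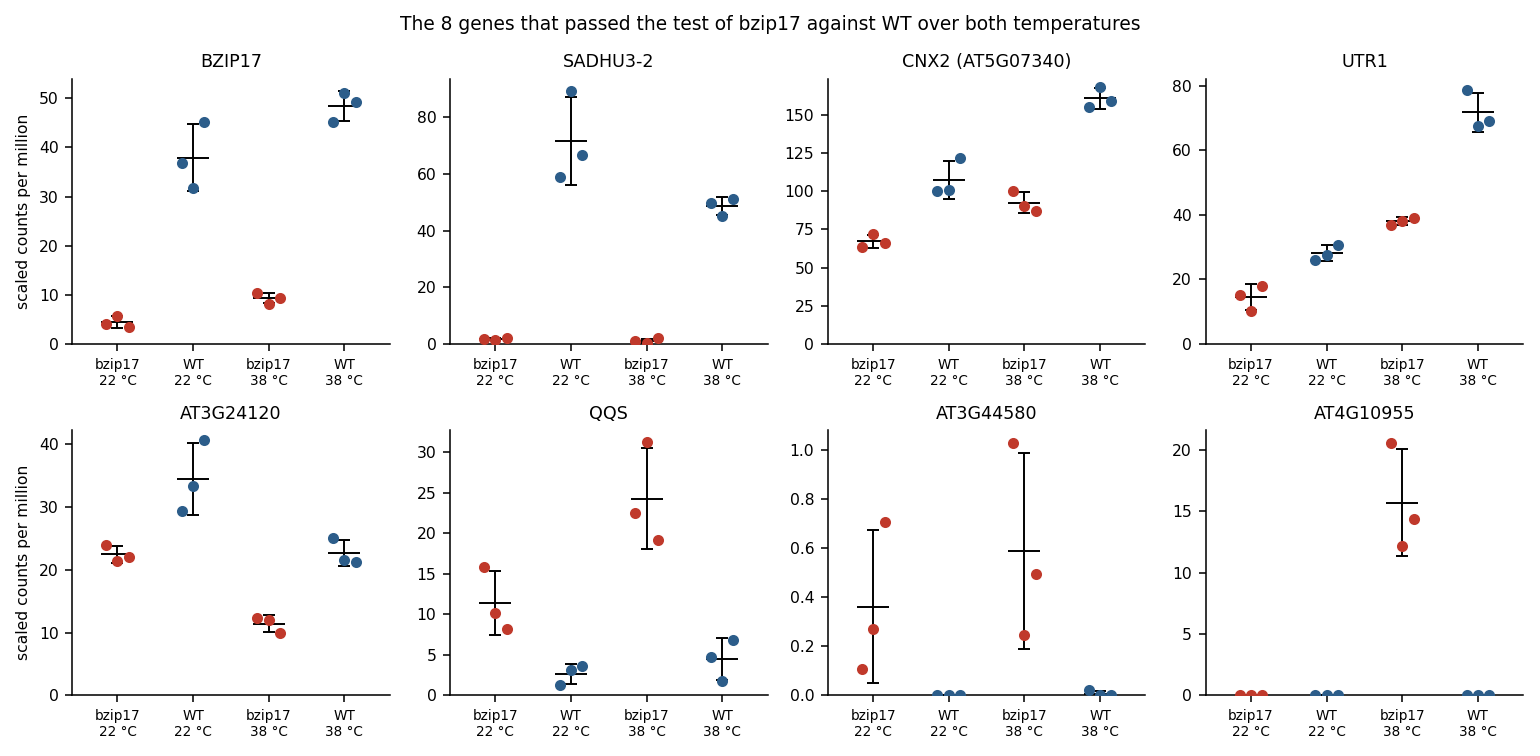
Scaled counts per M (CPM) in each library for the 8 genes with an adjusted p under 0.05, with bzip17 in red and WT in blue at 22 °C and 38 °C. Each point is a library, and the bars give the mean and SD of 3 libraries. BZIP17 and SADHU3-2 stand low in all 6 bzip17 libraries, and AT4G10955 has counts only in bzip17 at 38 °C.

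The 5 genes lower in bzip17 were BZIP17, a retroelement, 2 genes of ER function and a homeodomain-like gene. SADHU3-2 (AT3G42658.1, chromosome 3, 14749400 to 14750294) is a pseudogene of the Sadhu non-coding retroelements, a family known in Arabidopsis for copies whose silencing differs between accessions. It had 1.83, 1.31 and 2.21 CPM in bzip17 at 22 °C, against 59.1, 89.1 and 66.7 CPM in WT. At 38 °C the levels were 0.957, 0.402 and 1.94 CPM in bzip17, against 49.8, 45.1 and 51.3 CPM in WT. This was the largest difference among the lower genes, with a log2 change of -5.40 (SE 0.31, edgeR adjusted p = 4.45e-06) or 42.3-fold. It held in each of the 22 other settings tried, as did BZIP17. Sadhu copies resemble each other, and no source used here says how reads with several matches were counted.

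CNX2 (AT5G07340, chromosome 5, 2317213 to 2319649, annotated as a calreticulin family protein) encodes a calnexin, a lectin chaperone of the ER membrane that binds newly glycosylated proteins. CNX2 had 63.8, 72.1 and 65.9 CPM in bzip17 at 22 °C, against 99.9, 101.0 and 122.0 CPM in WT. After 6 h at 38 °C it had 100.1, 90.2 and 86.9 CPM in bzip17, against 155.2, 168.3 and 158.8 CPM in WT. The groups did not overlap at either temperature, with a log2 change of -0.74 (SE 0.09, edgeR adjusted p = 0.00719), and the call was kept without any 1 library. In the 8 libraries low in rRNA the log2 change was -0.72 and the call was lost.

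UTR1 (AT2G02810, chromosome 2, 801530 to 803436) encodes a carrier of UDP-galactose and UDP-glucose in the ER membrane, known to respond to unfolded proteins. UTR1, AT3G24120 and AT4G10955 fell outside the rule for named genes and were chosen after their values were seen. UTR1 had 15.2, 10.1 and 18.0 CPM in bzip17 at 22 °C, against 25.9, 27.7 and 30.7 CPM in WT. In heated buds it had 36.9, 38.1 and 39.2 CPM in bzip17, against 78.7, 67.6 and 69.0 CPM in WT. Again the libraries of the genotypes stayed apart at each temperature, and the log2 change was -0.94 (SE 0.12, edgeR adjusted p = 0.0162). Leaving out replicate 2 or 3 of WT at 22 °C, replicate 1 of WT at 38 °C or any library of bzip17 at 38 °C ended the call, with an adjusted p of at most 0.118.

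AT3G24120 (chromosome 3, 8705636 to 8708315) encodes a homeodomain-like protein. It had 23.98, 21.4 and 22.1 CPM in bzip17 at 22 °C, against 29.5, 33.4 and 40.7 CPM in WT, and 12.4, 12.0 and 9.92 CPM in bzip17 at 38 °C, against 25.0, 21.6 and 21.3 CPM in WT. The log2 change was -0.80 (SE 0.12, edgeR adjusted p = 0.0397). The call was kept only without replicate 1 of WT at 22 °C or replicate 2 of bzip17 at 22 °C, and the adjusted p reached 0.173 without another library. Of 4 tested genes just below it on the chromosome, looked up after its value was seen, AT3G24080 (KRR1 family) and GFAT (AT3G24090, the entry enzyme of amino sugar synthesis) had log2 changes of -1.01 and -1.08 that did not pass in edgeR (adjusted p = 0.251 and 0.276) and did in DESeq2 (adjusted p = 0.00138 and 0.00599). AT3G24110 had -0.94 (adjusted p = 0.521), and AT3G24100, which lies between them, had -0.16.

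The 3 genes higher in bzip17 were low or absent in WT. QQS (AT3G30720, chromosome 3, 12349047 to 12349832), an Arabidopsis gene without relatives in other lineages that is known to affect starch and protein content, had 15.8, 10.2 and 8.14 CPM in bzip17 at 22 °C, against 1.31, 3.10 and 3.64 CPM in WT. At 38 °C it had 22.5, 31.2 and 19.2 CPM in bzip17, against 4.72, 1.73 and 6.89 CPM in WT. All 6 bzip17 libraries lay above all 6 WT libraries. The log2 change was 2.29 (SE 0.34, edgeR adjusted p = 0.0397). Its adjusted p reached 0.125 when libraries were left out in turn, and the call was kept only without replicate 2 of WT at 38 °C, or replicate 2 or 3 of bzip17 at 22 °C.

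AT3G44580 (chromosome 3, 16160512 to 16161003), a gene the files do not describe, was counted almost only in bzip17. It had 4, 13 and 49 counts in bzip17 at 22 °C, against 0 in each WT library. At 38 °C the levels were 85, 16 and 26 counts in bzip17, against 1, 0 and 0 in WT. At 22 °C its level was at least 3.46-fold higher in bzip17, with WT set to 3 counts per library. At 38 °C the ratio of summed counts over summed library sizes was 97.1 (95% exact interval 17.1 to 3860.0, counting error only). It reached the FPKM limit for testing only through bzip17 libraries, so its edgeR adjusted p of 0.0397 in the averaged test is no support for a difference. With no expression filter or with filterByExpr the call was lost (adjusted p = 0.106 and 0.0716). When 1 library was left out, it was kept only without replicate 1 or 2 of bzip17 at 22 °C and the adjusted p reached 0.364. The next gene on the chromosome, AT3G44570, annotated as a retrotransposon ORF-1 protein and below the limit for testing, had 17, 37 and 28 counts in bzip17 at 22 °C, against 0 in each WT library. After 6 h at 38 °C it had 85, 37 and 29 counts in bzip17, against 16, 0 and 0 in WT.

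AT4G10955, an alpha/beta-hydrolase gene, passed the averaged test (edgeR adjusted p = 0.0145) on counts from a single condition, and it too reached the limit for testing only through bzip17. It had 1699, 784 and 758 counts in bzip17 at 38 °C and 0 in the other 9 libraries, so its level at 38 °C was at least 265-fold higher in bzip17 with WT set to 3 counts per library. The call was lost when any of those 3 libraries was left out, and DESeq2 gave an adjusted p of 0.443. Its coordinates on chromosome 4 (6713557 to 6718555) lie over UGE5 (AT4G10960, 6713557 to 6718550), a UDP-glucose epimerase gene on the same strand. UGE5 had 183, 85 and 182 counts in bzip17 at 38 °C, against 1177, 173 and 1129 in WT. Counted together, both genes had 22.8, 13.4 and 17.8 CPM in bzip17 at 38 °C, against 24.7, 3.08 and 23.0 CPM in WT, and the genotypes overlapped. No source used here says how reads were divided between these gene models.

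**Figure D2:**
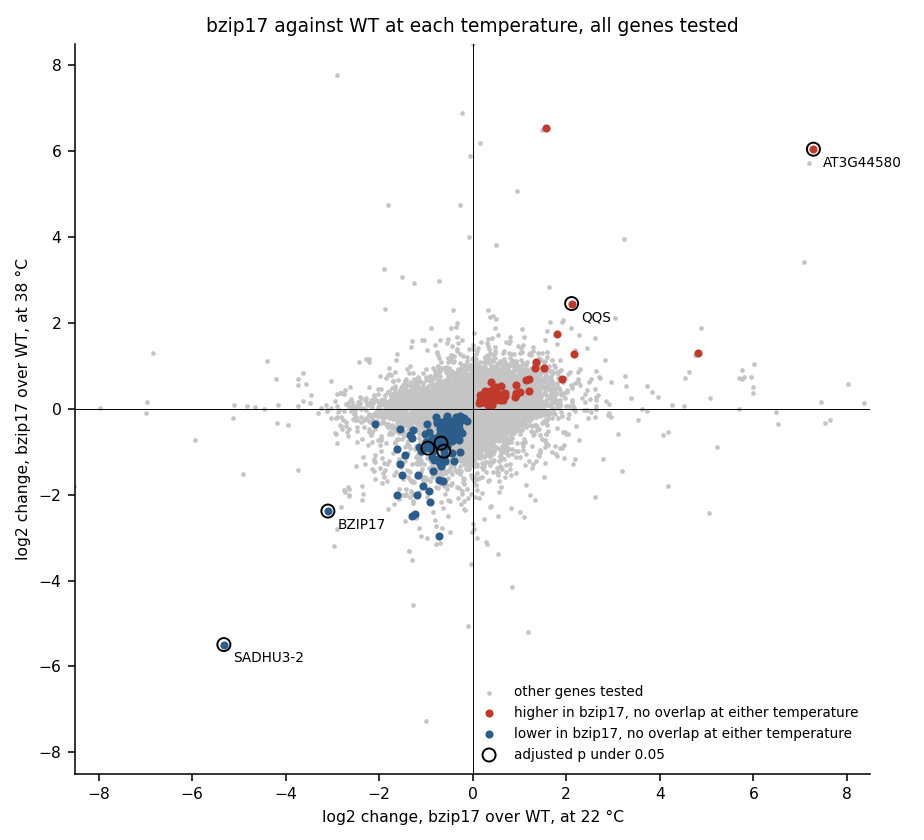
Log2 change of bzip17 over WT at 22 °C (x axis) and at 38 °C (y axis) for each gene tested. Red and blue points are the 80 and 135 genes whose bzip17 and WT libraries did not overlap at either temperature, black circles are genes with an adjusted p under 0.05, and 11 genes lie beyond the axes, AT4G10955 among them. SADHU3-2, BZIP17 and QQS sit near the line of equal change.

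An averaged effect can hide effects that differ between temperatures, so the difference itself was tested. No gene passed the interaction test (edgeR quasi-likelihood, 0%), with 895 genes (4.32%) at an unadjusted p under 0.05 and 6 genes called by DESeq2. Within a temperature, 2 genes were called at 22 °C (0.00965%), both lower in bzip17, and 3 at 38 °C (0.0145%), of which 1 was higher and 2 lower. BZIP17 had log2 changes of -3.10 at 22 °C and -2.38 at 38 °C, SADHU3-2 -5.32 and -5.49, CNX2 -0.68 and -0.80, UTR1 -0.96 and -0.91, and QQS 2.12 and 2.45. For each of these 5 the changes at both temperatures had the same sign, and the unadjusted interaction p was 0.0232 for BZIP17 and from 0.502 to 0.867 for the others.

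The relatives of BZIP17 were not called. BZIP60 (AT1G42990) had 37.9, 24.5 and 39.3 CPM in bzip17 at 22 °C, against 25.5, 20.4 and 22.9 CPM in WT. In heated buds it had 27.0, 28.1 and 32.6 CPM in bzip17, against 22.6, 20.03 and 24.2 CPM in WT. The groups were apart at 38 °C and overlapped at 22 °C, and the averaged log2 change of 0.48 (SE 0.13) did not pass (edgeR adjusted p = 0.399). BZIP28 (AT3G10800) had a log2 change of -0.01 (SE 0.13), made of -0.29 at 22 °C and 0.26 at 38 °C, and its sign turned in 9 of the 22 settings. BZIP49 (AT3G56660) was below the limit for testing, with 4 to 67 counts in bzip17 libraries and 0 to 102 in WT.

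Most genes of the unfolded protein response had small negative changes. The list holds 43 genes and 42 were tested. CNX2 was the only member called by edgeR, while DESeq2 called 3 lower (CNX2, PDIL2-2 and BIP1) and 1 higher (ATERDJ3A). At an unadjusted p under 0.05, 11 members were lower and 2 higher, against 4.91% and 4.25% of all genes. The libraries were apart at both temperatures in 6 lower members and 1 higher member, against 0.652% and 0.386% of all genes. In all, 32 of 42 had a negative log2 change, and the median was -0.15, against 0.00 over all genes. With library totals in place of TMM, which moved the median of all genes to 0.18, the list median was 0.05, or -0.14 relative to all genes, and 34 of 42 lay below the median of all genes. In the 8 libraries low in rRNA, 33 were negative with a median of -0.11, and 8 were lower and 3 higher at an unadjusted p under 0.05, against 1.96% and 1.04% of all genes there. Summed over the list, the level was 4241 to 4731 CPM in bzip17 at 22 °C, against 5326 to 5808 CPM in WT, and 7446 to 7905 CPM in bzip17 at 38 °C, against 8308 to 8909 CPM in WT. The sums did not overlap at either temperature, which also held for the sums of the salicylic acid and glucosinolate lists described below. Most of the glucosinolate sum came from only 2 genes, TGG1 and TGG2. The unfolded protein response sums of both genotypes were higher at 38 °C.

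**Figure D3:**
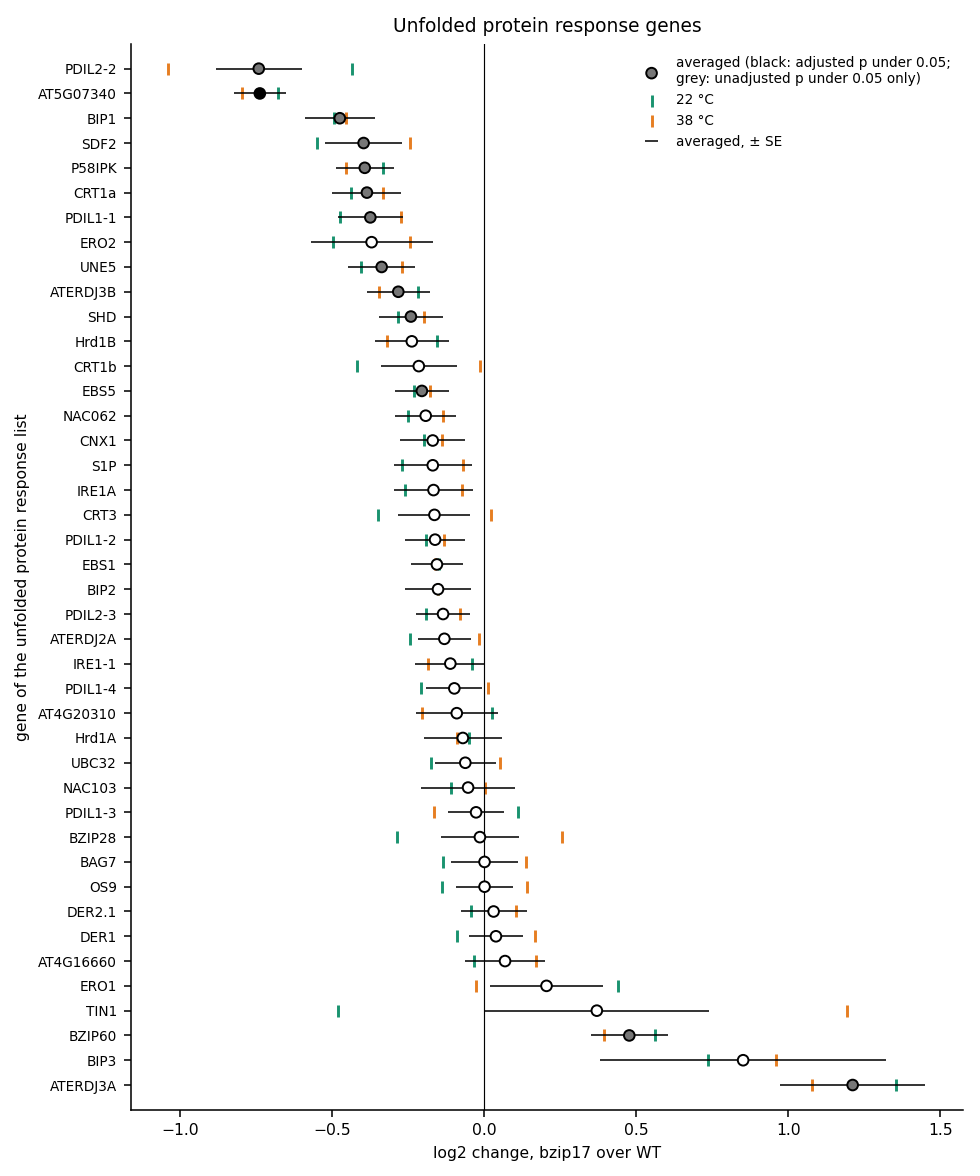
Log2 change of bzip17 over WT for the 42 tested genes of the unfolded protein response, lowest at the top. Circles are the averaged change with its SE (black, adjusted p under 0.05; grey, unadjusted p under 0.05 only; white, neither), and ticks are the changes at 22 °C (green) and 38 °C (orange). CNX2 (AT5G07340) is the only black circle, and ATERDJ3A lies farthest to the right at 1.21.

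Members other than CNX2 are named here after their values were seen. PDIL2-2, a protein disulfide isomerase, had 11.6, 8.87 and 15.3 CPM in bzip17 at 22 °C, against 15.8, 16.3 and 16.4 CPM in WT. At 38 °C it had 29.2, 29.3 and 29.9 CPM in bzip17, against 59.6, 60.5 and 61.3 CPM in WT. Its averaged log2 change was -0.74 (SE 0.14, edgeR adjusted p = 0.16, DESeq2 adjusted p = 0.00253), and the changes were -0.44 at 22 °C and -1.04 at 38 °C. BIP1, an ER HSP70, had 292.9, 284.3 and 339.5 CPM in bzip17 at 22 °C, against 429.1, 436.2 and 426.8 CPM in WT. At 38 °C BIP1 had 597.0, 660.8 and 661.7 CPM in bzip17, against 865.9, 1069.0 and 696.4 CPM in WT. Its groups did not overlap at either temperature, with a log2 change of -0.48 (SE 0.11, edgeR adjusted p = 0.339, DESeq2 adjusted p = 0.0131). The near-identical BIP2 had -0.15 (SE 0.11), and reads can be split between these copies in ways the files do not show.

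Next to BIP1 stood its partner P58IPK, a J-domain co-chaperone of the ER lumen, with a log2 change of -0.39 (SE 0.10, edgeR adjusted p = 0.339). P58IPK had 25.9 to 32.4 CPM in bzip17 at 22 °C, against 32.5 to 42.0 CPM in WT, and 42.5 to 47.3 CPM in bzip17 at 38 °C, against 56.9 to 69.5 CPM in WT. The calreticulin CRT1a, a soluble lectin chaperone, had -0.39 and PDIL1-1, another disulfide isomerase, had -0.37, both with no overlap at either temperature and adjusted p of 0.445 and 0.413. On the higher side ATERDJ3A (AT3G08970), a J-domain protein of the ER known for pollen tube growth under heat, had 8.89, 5.41 and 15.2 CPM in bzip17 at 22 °C, against 4.82, 3.46 and 3.19 CPM in WT. At 38 °C the levels were 28.0, 54.8 and 50.2 CPM in bzip17, against 22.8, 20.07 and 20.07 CPM in WT. Its log2 change of 1.21 (SE 0.24) did not pass in edgeR (adjusted p = 0.185) and did in DESeq2 (adjusted p = 0.000813).

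Outside the list, 3 further genes of the secretory pathway had groups apart at both temperatures, and they were picked after their values were seen. AT5G50460, the gamma subunit of the Sec61 channel through which proteins enter the ER, had 126.7, 87.8 and 86.7 CPM in bzip17 at 22 °C, against 145.3, 182.6 and 137.2 CPM in WT. At 38 °C AT5G50460 had 104.1, 80.2 and 103.8 CPM in bzip17, against 144.3, 142.3 and 157.0 CPM in WT. All 6 bzip17 libraries lay below all 6 WT libraries, with a log2 change of -0.63 (SE 0.12, edgeR adjusted p = 0.185). AT1G61790, an oligosaccharyltransferase subunit that helps to attach N-glycans, had -0.52 (SE 0.10, adjusted p = 0.137). ROC7, a cyclophilin of the secretory pathway, had -0.55 (SE 0.12, adjusted p = 0.256). DESeq2 called all 3 lower.

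The 6 genes the study followed by RT-qPCR all had negative averaged changes with TMM scaling, and none was called. With library totals, which moved the median of all genes to 0.185, the changes of CNX1, HB-7 and P5CS1 turned positive. All 6 lay below that median. The study picked them from genes bound by MYC-tagged bZIP17 in heated seedlings, a separate experiment not analysed here. SDF2, part of the ER HSP40 complex, had a log2 change of -0.40 (SE 0.13), ATERDJ3B, its partner, -0.28 (SE 0.10), and SHD, the ER HSP90, -0.24 (SE 0.11). These 3 had an unadjusted p under 0.05 in 12 libraries, and none of them did in the 8 libraries low in rRNA. The calnexin CNX1 had -0.17 (SE 0.11), against -0.74 for its relative CNX2. The water deficit genes P5CS1, for proline synthesis, and HB-7 (AT2G46680), a homeobox factor, had -0.06 (SE 0.14) and -0.03 (SE 0.31). P5CS1 had log2 changes of 0.25 at 22 °C and -0.37 at 38 °C, with an unadjusted interaction p of 0.0217.

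To describe the unfolded protein response list and the lower genes, the 250 bases before each gene start (RefSeq, TAIR10.1) were searched on both strands. The motifs were ERSE-I (CCAAT, any 10 bases, CACG), ERSE-II (ATTGG, any 1 base, CCACG), the UPR element TGACGTGG and the G-box CACGTG. They can overlap each other. ERSE-I was in 10 of 42 windows of the list (23.8%), against 179 of 20365 windows of all tested genes (0.879%). The UPR element was in 6 (14.3%, against 1.51%), the G-box in 11 (26.2%, against 7.28%), and ERSE-II in none (0.0737% of all). The list was written by hand from a response known for such elements, so these shares are no result about bzip17. The stretches below are the ERSE-I matches of the 5 list members that carry one and were lower at an unadjusted p under 0.05, with the match in capitals. Each is written 5′ to 3′ on the gene's strand.
P58IPK, chr5:749962-750020, plus strand: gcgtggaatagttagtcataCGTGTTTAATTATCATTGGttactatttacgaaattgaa
P58IPK, chr5:750022-750080, plus strand: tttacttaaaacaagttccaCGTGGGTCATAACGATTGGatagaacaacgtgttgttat
PDIL1-1, chr1:7645403-7645461, plus strand: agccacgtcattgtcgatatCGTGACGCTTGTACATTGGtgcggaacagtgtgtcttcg
CRT1a, chr1:21092739-21092797, minus strand: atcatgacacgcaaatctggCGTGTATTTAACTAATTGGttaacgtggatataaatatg
EBS5, chr1:6282146-6282204, minus strand: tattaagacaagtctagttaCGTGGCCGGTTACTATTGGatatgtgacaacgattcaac
SHD, chr4:12556059-12556100, minus strand: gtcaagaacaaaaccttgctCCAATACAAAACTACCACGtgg

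In 5 of these 6 stretches the element reads as its reverse complement, and P58IPK carries a pair, as does BIP3, which was not lower and is not shown. Among the 10 list genes with ERSE-I in the window, 8 had a negative log2 change and the median was -0.22. The positive ones were BIP3 at 0.85 (SE 0.47, edgeR adjusted p = 0.575) and AT4G16660 at 0.07 (SE 0.13). Among the 32 without it, 24 were negative and the median was -0.12. Of the 134 genes with a window that were lower at both temperatures without overlap, 5 held ERSE-I (3.73%, against 0.879% of all windows). They were CRT1a, P58IPK, PDIL1-1, ROC7 and WRKY35, of which CRT1a, P58IPK and PDIL1-1 belong to the list. None of the 80 higher ones held it, which is no contrast at a share of 0.879% over all windows. None of the 8 genes that passed the averaged test held ERSE-I or ERSE-II. The windows of the ER genes among them are shown for comparison, with the only match, a G-box of UTR1, in capitals.
UTR1, chr2:801277-801526, plus strand: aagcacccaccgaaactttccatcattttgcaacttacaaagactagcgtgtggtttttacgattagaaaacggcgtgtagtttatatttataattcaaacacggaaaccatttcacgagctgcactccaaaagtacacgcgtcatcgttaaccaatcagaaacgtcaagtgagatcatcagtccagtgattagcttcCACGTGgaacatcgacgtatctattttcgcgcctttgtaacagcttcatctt
CNX2 (AT5G07340), chr5:2316876-2317125, plus strand: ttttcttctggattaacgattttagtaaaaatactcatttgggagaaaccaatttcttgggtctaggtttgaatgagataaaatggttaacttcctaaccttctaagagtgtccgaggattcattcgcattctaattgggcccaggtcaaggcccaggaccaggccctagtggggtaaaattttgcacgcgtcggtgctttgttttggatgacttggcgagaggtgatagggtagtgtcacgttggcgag
A match is a description of these letters only, and it was not tested whether any factor binds there.

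Photosynthesis genes, expressed in the green sepals, leaned the other way. Of 46 tested none was called by edgeR and 4 were higher by DESeq2, while 45 had a positive log2 change with a median of 0.29, and 25 were higher and none lower at an unadjusted p under 0.05, against 4.25% and 4.91% of all genes. In 5 of the 46 the bzip17 libraries lay above WT at both temperatures, against 0.386% of all genes. CAB2 (AT1G29920), a light-harvesting protein of photosystem II, had 634.3, 679.7 and 531.3 CPM in bzip17 at 22 °C, against 322.6, 338.7 and 313.9 CPM in WT. After 6 h at 38 °C it had 663.3, 639.1 and 633.0 CPM in bzip17, against 450.8, 507.5 and 550.6 CPM in WT. Its log2 change was 0.64 (SE 0.13, edgeR adjusted p = 0.185, DESeq2 adjusted p = 0.000335), and its reads may be shared with near-identical CAB genes. LHCB4.2 and LHCB2.1, antenna proteins of the same photosystem, had 0.46 (SE 0.09) and 0.49 (SE 0.10). In the 8 libraries low in rRNA 43 of 46 stayed positive with a median of 0.16, and 3 were higher at an unadjusted p under 0.05, against 1.04% of all genes there. The medians were 0.47 at 22 °C and 0.12 at 38 °C.

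The wax and cutin list, genes that build the cuticle of the epidermis, had the highest median. All 23 had a positive log2 change with a median of 0.57, and 12 were higher at an unadjusted p under 0.05 (4.25% of all genes), but none was called and none had libraries apart at both temperatures. CER4, an alcohol-forming reductase of wax synthesis, had 35.1, 20.7 and 63.3 CPM in bzip17 at 22 °C, against 30.03, 21.9 and 11.8 CPM in WT, with a log2 change of 0.75 (SE 0.26, edgeR adjusted p = 0.468). In heated buds it had 16.5, 17.04 and 21.2 CPM in bzip17, against 12.2, 11.6 and 12.0 CPM in WT. Without the libraries rich in rRNA none of the 23 was under the unadjusted limit (1.04% of all genes were higher there), and the median was 0.40. Tapetum and pollen wall genes, expressed in the nurse layer of the anther, were also all positive (27 of 27, median 0.38), with 4 higher at an unadjusted p under 0.05 (4.25% of all genes) and 0 without the libraries rich in rRNA (1.04%).

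**Figure D4:**
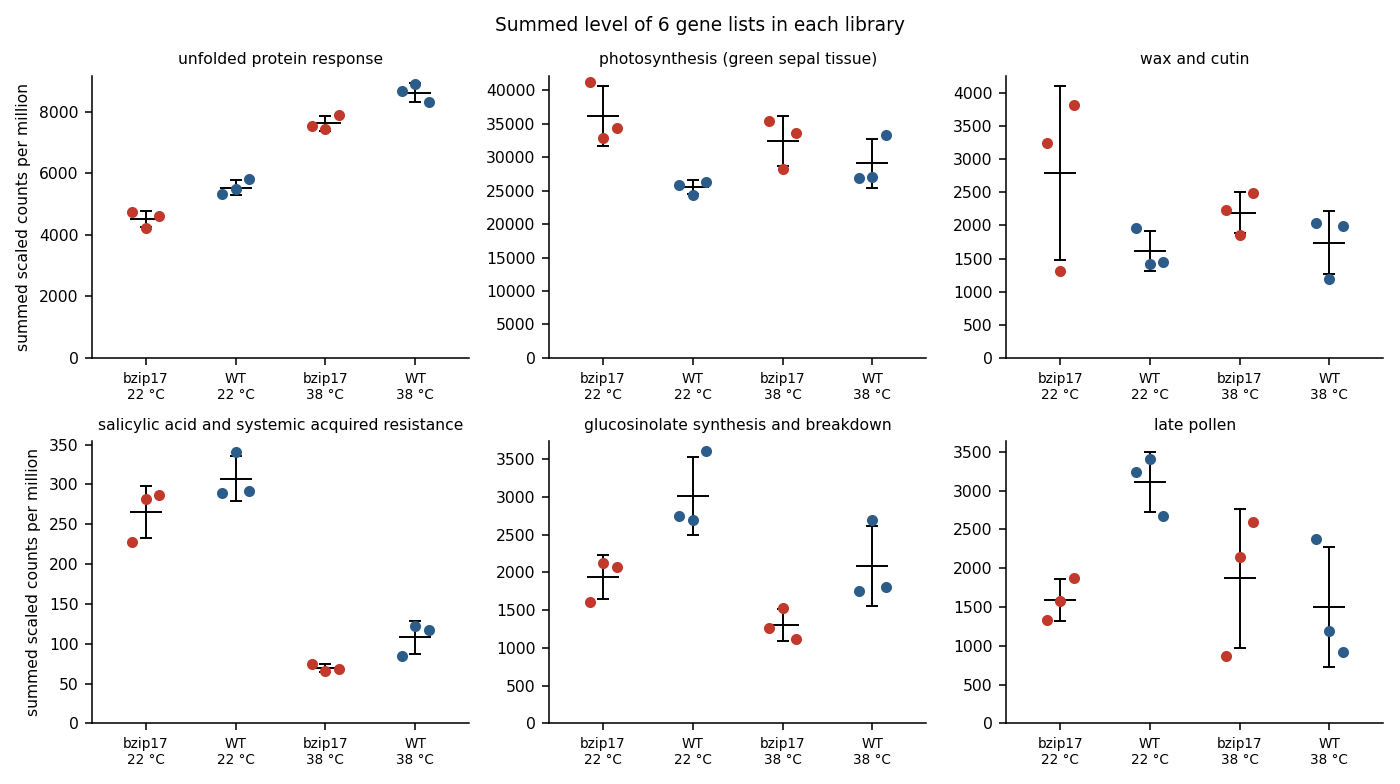
Summed CPM of 6 gene lists in each library, with bzip17 in red and WT in blue at 22 °C and 38 °C, and bars for the mean and SD of 3 libraries. The unfolded protein response, salicylic acid and glucosinolate sums of bzip17 lie below those of WT at each temperature. The glucosinolate sums are mostly TGG1 and TGG2. The wax and cutin and late pollen sums spread widely within a group.

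Both lists spread widely within a group. The wax and cutin sum was 3249, 1311 and 3816 CPM in bzip17 at 22 °C, against 1424 to 1959 CPM in WT, and 1861 to 2483 CPM in bzip17 at 38 °C, against 1186 to 2040 CPM in WT. The tapetum sum ran from 1185 to 3283 CPM in bzip17 at 22 °C, with replicate 2 lowest as it was for wax and cutin, against 1922 to 2268 CPM in WT. In heated buds the tapetum sum was 2135 to 3003 CPM in bzip17, against 2426, 1311 and 2681 CPM in WT. Replicate 2 of WT at 38 °C was also the lowest for wax and cutin, with 1186 CPM. Late pollen genes differed in the sign of their median, -1.01 at 22 °C and 0.39 at 38 °C, and their sums were 1326 to 1874 CPM in bzip17 at 22 °C, against 2678 to 3409 CPM in WT. At 38 °C the sums were 868.4 to 2595 CPM in bzip17, against 919.7 to 2374 CPM in WT. The averaged log2 change was negative for 20 of 29 late pollen genes in the fit of all 12 libraries. It was negative for 9 of 29 in the fit of the 8 libraries low in rRNA. The part of tissue composition in the list differences was not tested.

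Defence genes leaned lower in the averaged comparison. Of 14 tested genes of salicylic acid signalling and systemic acquired resistance, 12 had a negative averaged log2 change with a median of -0.50, made of medians of -0.02 at 22 °C and -0.61 at 38 °C. The sum over the 20 listed genes was 227.6 to 286.5 CPM in bzip17 at 22 °C, against 289.6 to 340.3 CPM in WT. At 38 °C the sum was 65.8 to 74.6 CPM in bzip17, against 84.8 to 122.3 CPM in WT, so the genotypes were apart at each temperature. None of the 14 was called by edgeR and 2 were lower by DESeq2. At an unadjusted p under 0.05, 5 were lower, against 4.91% of all genes, and 3 in the 8 libraries low in rRNA, against 1.96%, with a median of -0.53. SAG101 (AT5G14930), a lipase-like partner of EDS1 in immunity, had 4.74, 5.76 and 4.90 CPM in bzip17 at 22 °C, against 9.84, 9.07 and 9.23 CPM in WT. At 38 °C it had 2.36, 1.92 and 1.35 CPM in bzip17, against 4.16, 4.94 and 3.20 CPM in WT. The log2 change of SAG101 was -0.995 (SE 0.18, edgeR adjusted p = 0.137, DESeq2 adjusted p = 0.000335). WRKY70 (AT3G56400), a transcription factor of the same pathway, had -1.01 (SE 0.23, edgeR adjusted p = 0.339, DESeq2 adjusted p = 0.00792). These lists were written by hand, and a member is named here because of its value.

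Among 19 tested glucosinolate genes, 3 were lower and 1 higher at an unadjusted p under 0.05, against 4.91% and 4.25% of all genes, and the medians differed in sign, 0.19 at 22 °C and -0.36 at 38 °C. The myrosinases TGG1 and TGG2, which cleave glucosinolates on wounding and lie side by side on chromosome 5, were apart at both temperatures. TGG1 had 488.0, 807.9 and 698.6 CPM in bzip17 at 22 °C, against 1141, 1072 and 1368 CPM in WT, and 330.5, 492.6 and 319.1 CPM in bzip17 at 38 °C, against 568.3, 1088 and 592.2 CPM in WT. Their log2 changes were -0.91 (SE 0.20) and -0.75 (SE 0.19), with edgeR adjusted p of 0.276 and 0.384 and DESeq2 adjusted p of 0.00154 and 0.0169. TGG1 and TGG2 are similar in sequence, so reads may be shared between them. They made up most of the glucosinolate sum in each library, with 1141 and 1345 of 2743 CPM in replicate 1 of WT at 22 °C. Whether the genotypes differ in the sum of the other members was not tested.

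**Figure D5:**
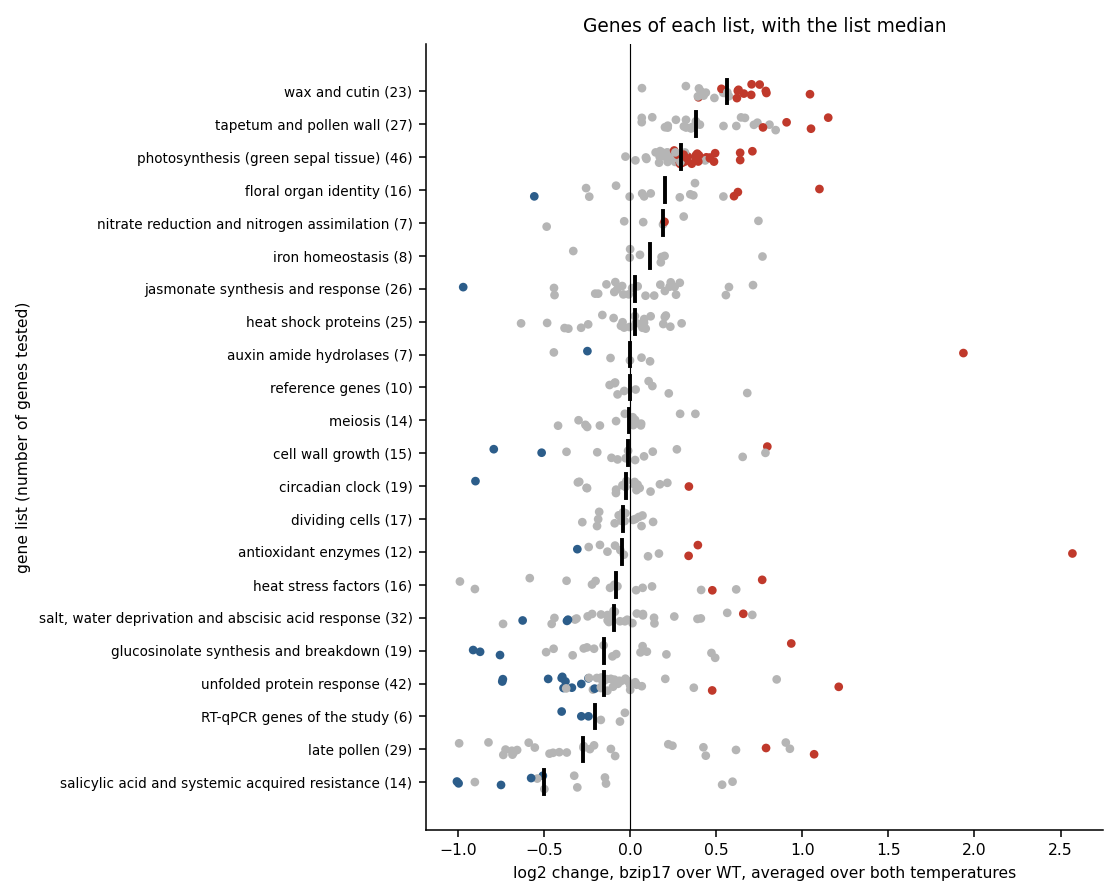
Averaged log2 change of bzip17 over WT for each tested gene of 22 lists, with the list median as a black bar. Red and blue points have an unadjusted p under 0.05, higher and lower in bzip17. Medians run from -0.50 for salicylic acid genes to 0.57 for wax and cutin genes.

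Heat shock proteins did not lean either way in the averaged comparison, but they spread widely between libraries at 38 °C. Their sums there were 9649, 20845 and 11919 CPM in bzip17, against 7775, 27346 and 8496 CPM in WT. A difference within that spread could be missed. None of 25 had an unadjusted p under 0.05, the log2 changes ran from -0.63 to 0.30, and the median was 0.03 (-0.12 at 22 °C, 0.16 at 38 °C and -0.17 in the 8 libraries low in rRNA). Of 32 tested genes that respond to abscisic acid, salt or drought, 3 were lower and 1 higher at that limit, near the 4.91% and 4.25% of all genes, with a median of -0.09 (0.02 at 22 °C and -0.21 at 38 °C), and 0 were at it without the libraries rich in rRNA. Meiosis genes (14), dividing cell genes (17) and reference genes (10) had no member under the limit and medians of -0.01, -0.04 and 0.00. The dividing cell medians differed in sign, -0.21 at 22 °C and 0.18 at 38 °C. Those of the meiosis list were -0.13 and 0.02, and those of the reference genes -0.02 and 0.05. Of 12 tested antioxidant genes, 3 were higher and 1 lower at an unadjusted p under 0.05, against 4.25% and 4.91% of all genes. Their median log2 change was -0.05, with 5 positive and 7 negative. In 2 of them, FSD1 not included, bzip17 lay above WT at both temperatures, against 0.386% of all genes. The largest change was that of FSD1, an iron superoxide dismutase of plastids. It had 128.5, 89.6 and 39.6 CPM in bzip17 at 22 °C, against 10.7, 11.7 and 8.78 CPM in WT. FSD1 had 92.2, 38.9 and 286.5 CPM in bzip17 at 38 °C, against 47.2, 16.6 and 32.9 CPM in WT, where the genotypes overlapped. Its log2 change of 2.57 (SE 0.47) did not pass in edgeR (adjusted p = 0.137) and did in DESeq2 (adjusted p = 0.0003).

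Genes around the insertion locus were examined because a mutant line can differ from WT near the mutated gene. Of 116 tested genes that start within 250 kb of BZIP17, none was called (smallest edgeR adjusted p = 0.445), 9 were higher and 5 lower at an unadjusted p under 0.05, against 4.25% and 4.91% of all genes, and none had libraries apart at both temperatures (1.04% of all genes). Their median log2 change was 0.03. By chromosome, the called genes were 4 of 4073 tested on chromosome 3 and 2 of 3198 on chromosome 2. They were 1 of 3063 on chromosome 4, 1 of 4743 on chromosome 5 and none of 5375 on chromosome 1. Those on chromosomes 3 and 4 include AT3G44580 and AT4G10955, which reached the limit for testing only through bzip17. The share of genes with libraries apart at both temperatures was 0.949% on chromosome 1 and 1.23% on chromosome 3, the lowest and highest of the 5.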

How the data were processed

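Reads from TRIzol-extracted bud RNA were trimmed with cutadapt, aligned to TAIR10 with HISAT2 and assembled with StringTie by the authors, and no source used here gives versions. The deposited table holds the authors' count per gene and library, and their FPKM, used here for the filter and in a limma alternative. Library strand and treatment of multiply matching reads are not given, so counts of P58IPK, ROC7, P5CS1 and LHCB4.2, which overlap a neighbouring gene, are uncertain. Counts were scaled by TMM and tested with edgeR 4.0.16 (quasi-likelihood F test, temperature + genotype, two-sided, Benjamini-Hochberg over 20715 genes). The interaction and the changes within each temperature came from a fit of 4 group means. SE was taken as the size of the log2 change over the root of its F statistic. Replicate samples are separate pools of plants. DESeq2 1.42.0, limma 3.58.1, R 4.3.3 and Python 3.11.15 were used, and the test was checked on simulated data. The members and the 23 gene lists were chosen with earlier results of these data known. Named genes are BZIP17, its relatives, the RT-qPCR genes, called genes whose 6 bzip17 and 6 WT libraries did not overlap, called list members, and called genes near BZIP17. Other genes named were chosen after their values were seen. Symbols and sequences come from RefSeq (TAIR10.1), which matched 32828 of 33610 genes. Intervals and floors cover counting error only. The alternatives were other scalings, filters and tests, leaving out libraries, and covariates.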

Additional observations from a re-analysis of the deposited data

How the results depend on the processing

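All 8 genes called in the averaged comparison kept their direction in the 22 other fits. SADHU3-2 and BZIP17 were also called in each of them, while the rest were lost in some. Genes higher and lower numbered 23 and 73 with DESeq2 (7 of the 8 shared), 4 and 2 with library totals (5 shared), 2 and 2 without the libraries over 10% rRNA (3 shared), 1 and 2 with the rRNA share as a covariate (3 shared), 0 and 6 as the mean of the contrasts within temperatures (5 shared), 4 and 3 with limma on log2(FPKM + 1) (3 shared), and 112 and 146 at an unadjusted p under 0.05 and over 2-fold. With a fold over 2 added to the adjusted p there were 3 and 2. Leaving out 1 library at a time gave 0 to 6 higher and 3 to 12 lower, the most without replicate 2 of bzip17 at 22 °C (6 and 12). Without replicate 1 or 3 of bzip17 at 38 °C no gene was higher, and replicate 1, 2 or 3 of WT at 22 °C, replicate 3 of WT at 38 °C and replicate 2 of bzip17 at 38 °C each left 1 higher. The interaction counted 6 genes with DESeq2, 3 with library totals, 1 without the libraries over 10% rRNA and 0 to 3 without 1 library, 3 of them without replicate 1 of WT at 22 °C. The other scaling and filter settings gave counts within 1.5 times the main ones. Where a count moved, the cause was not tested.

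Same-number libraries of the genotypes deviated from their group means with correlations of -0.0352, 0.11 and -0.26 at 22 °C and -0.194, 0.242 and -0.0198 at 38 °C. Libraries of different numbers had -0.293 to 0.346 at 22 °C and -0.261 to 0.257 at 38 °C. No sign of pairing by number was seen, but so few libraries cannot show whether a batch was shared. A replicate block gave 0 higher and 6 lower genes, 4 of the 8 shared, and no interaction.

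Signs of small changes turned. The median of all genes moved to 0.185 with library totals and to 0.203 with limma on log2(FPKM + 1). Each value given next for these fits lies below that median, so relative to all genes it did not turn positive. With library totals the log2 change was 0.17 for BZIP28, 0.055 for CNX1, 0.13 for HB-7 (AT2G46680), 0.15 for P5CS1 and 0.042 for BIP2. With limma on log2(FPKM + 1) it was 0.20 for BZIP28, 0.074 for CNX1, 0.0022 for SHD, 0.079 for HB-7 (AT2G46680), 0.18 for P5CS1 and 0.086 for BIP2. Without the libraries over 10% rRNA it was 0.0046 for BZIP28 and 0.0195 for P5CS1. Without 1 library it ran from -0.083 to 0.046 for BZIP28, from -0.30 to 0.14 for HB-7 (AT2G46680) and from -0.11 to 0.065 for P5CS1. Replicate 3 of WT at 22 °C, with 13.6 M counts outside rRNA, limits the precision at low levels.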
